A study of Mus musculus with 13 samples.

Results

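The 38 genes described here are DNA repair and DNA damage checkpoint genes outside classical end joining. They were chosen by name and not by a threshold on their values, but with earlier results of these data known. Each gene was read from its brightest probe set, a probe set being the group of short probes that reports 1 transcript on the array, among those annotated to that gene alone. Of the 38 genes, 37 had such a probe set, out of 18193 genes on the array, and Xrcc2 had none. The cells were EPLMs, early progenitors with lymphoid and myeloid potential, sorted from bone marrow with a gate that included B220+, c-kit+, CD93+ and NK1.1-. RNA of 3 WT mice was compared with RNA of 3 BCS mice, 1 mouse and 1 Affymetrix mouse genome GeneChip each, all 7 weeks old and on a B6CF1 x C57BL/6 background. BCS mice carry an HA-tagged human cDNA of the p34 isoform of OBF1 under the Ig heavy chain Eμ enhancer and a VH promoter, elements that can also be active outside the B lineage. Several founder lines were made, and which of them gave the arrayed mice is not given in the sources used here. WT mice lack the transgene and carry only their own OBF1 gene, Pou2af1. The series holds 13 arrays, of which 6 were used. The other 7, from large preB cells, were not used, since across probe sets their mean levels followed those of EPLMs with r of only 0.0944, against 0.978 across 64 control features. Among the arrays used, WT 2 was the highest WT mouse for every NK and myeloid marker measured. BCS 1 was the lowest BCS mouse for every NK marker and most myeloid ones. Counts of repair genes without either mouse are given.

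OBF1 is a coactivator that binds DNA together with Oct1 or Oct2 at the octamer motif. Repair genes work in pathways that a progenitor uses at different moments. Homologous recombination copies an intact sister strand after replication, base excision and single-strand break repair replace damaged bases, mismatch repair corrects replication errors, nucleotide excision repair removes bulky lesions, and the Fanconi anaemia proteins handle crosslinks between strands. Break sensors and checkpoint kinases hold the cell cycle while DNA is broken, also during the programmed breaks of immunoglobulin gene rearrangement. Many repair genes are transcribed most in dividing cells, where E2F factors bind their promoters.

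None of the 37 repair genes passed the test for a change between BCS and WT EPLMs. In a limma fit over 45037 probe sets, 0 of them were higher and 0 were lower at a Benjamini-Hochberg adjusted p under 0.05. The methods' t-test, with the same adjustment and threshold, also gave 0 and 0. The paper itself called genes at an unadjusted P under 0.01 in that test with medians at least 2-fold apart. The medians of the repair genes were at most 1.81-fold apart (Bard1). Over all genes, each by its brightest probe set, 3.15% were called higher and 4.7% lower, and over all probe sets 2.24% and 3.25%. At an unadjusted p under 0.05 there were 4 repair genes higher in BCS (10.8%) and 5 lower (13.5%), against 11.3% and 11.7% of all genes. The mean was higher in BCS mice for 18 genes and lower for 19, with log2 differences, BCS minus WT on log2 of intensity plus 1, from -0.43 to 0.57. Their median was -0.01, and the median size was 0.16, against 0.01 and 0.14 over all genes.

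On the brightest probe set of each gene, the data bounded most of these differences closely. For 36 of 37 genes (97.3%) the 95% interval of the log2 difference lay within 1 of zero, that is within 2-fold either way, against 88.4% of all genes. For 19 it lay within 0.5. Intensities were over 64 on the mean of the 6 arrays for 33 of the 37, against 48.3% of all genes, and the dimmer genes were Bard1, Ogg1, Ercc2 and Polm. Among genes over 64, 5.47% of 8796 were called higher and 8.31% lower, and at an unadjusted p under 0.05 the shares were 18.1% and 17.7%, against 12.1% and 15.2% of the 33 repair genes. The 95% interval lay within 1 of zero for 82.4% of these brighter genes and for all 33 repair genes among them. The summed intensity of the 37 probe sets was 75865 to 82824 in WT mice and 81045 to 83899 in BCS mice, so the genotypes overlapped. In 6 genes the lowest BCS mouse exceeded the highest WT mouse (16.2%), and in 6 others the order was the reverse (16.2%), and the shares over all genes were 14.5% and 14.2%. Among genes over 64 they were 21.4% and 20.2%, against 18.2% and 18.2% of the 33 repair genes.

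**Figure D1:**
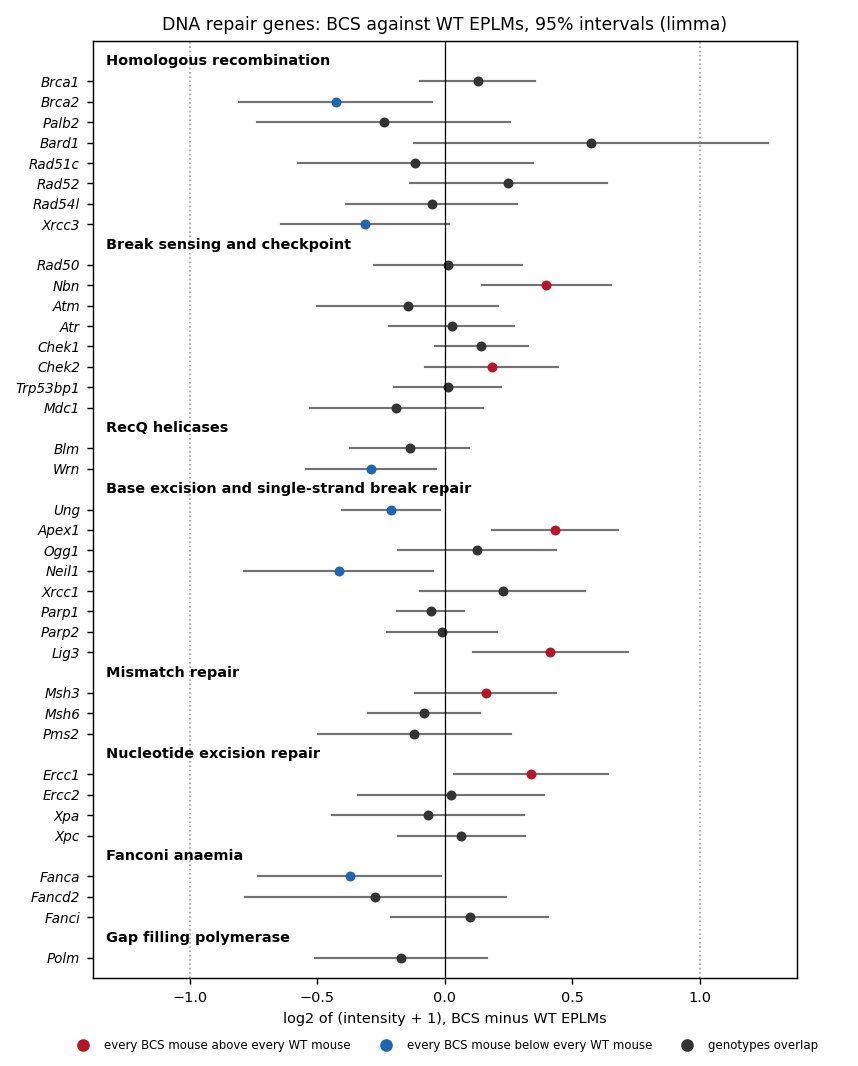
Log2 difference (log2 of intensity plus 1, BCS minus WT EPLMs, x axis) of each measured repair gene on its brightest probe set, grouped by pathway. Lines are 95% intervals from limma, 3 mice per genotype. Red and blue points mark genes whose genotypes do not overlap, 6 higher and 6 lower, dotted lines mark a 2-fold difference, and the interval of Bard1 alone passes such a line, reaching 1.27.

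Promoter sequence was at hand for 32 of the 38 genes, as the 300 bases from 250 before to 50 after the gene start in RefSeq (GRCm38.p6). Wrn, Fancd2, Rad50, Xpc, Xrcc2 and Nbn were not matched. The octamer ATGCAAAT, searched on both strands, lay in 1 of the 32 (3.12%), that of Parp2, and in 1.97% of 27025 promoters. The E2F-type motif TTTCCCGC lay in 6 (18.8%), those of Brca2, Bard1, Rad51c, Chek2, Mdc1 and Msh6, against 1.24% of all promoters. A further E2F-type motif, TTTGGCGC, lay in that of Msh3 (3.12% against 0.585%). The CHR motif TTTGAA lay in 1 promoter, that of Bard1 (3.12% against 20.2%), and CCAAT in 17 (53.1% against 41.1%). The Parp2 stretch at chr14:50807838-50807889 (plus strand) is shown for its octamer, which reads on the opposite strand. It lies between Rpph1, the RNA of RNase P, annotated at chr14:50807447-50807771, and Parp2, annotated from 50807897. The stretches of Bard1 (chr1:71103152-71103203, minus strand) and Brca2 (chr5:150522431-150522482, plus strand) are shown because these genes had the highest and the lowest log2 difference and hold the same E2F-type motif. Those of Chek2 (chr5:110839809-110839860, plus strand) and Msh3 (chr13:92355176-92355227, minus strand) belong to genes whose genotypes did not overlap. Capitals mark the motif, written 5′ to 3′ along the gene's strand.
Parp2: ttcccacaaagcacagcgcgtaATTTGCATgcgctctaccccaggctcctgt
Bard1: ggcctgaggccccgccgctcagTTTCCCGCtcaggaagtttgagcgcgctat
Brca2: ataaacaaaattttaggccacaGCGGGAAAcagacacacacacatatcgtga
Chek2: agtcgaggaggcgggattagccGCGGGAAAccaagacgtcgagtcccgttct
Msh3: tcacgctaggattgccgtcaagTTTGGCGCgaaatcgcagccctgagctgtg
The 6 genes with TTTCCCGC had log2 differences of -0.43 (Brca2), 0.57 (Bard1), -0.11 (Rad51c), 0.18 (Chek2), -0.19 (Mdc1) and -0.08 (Msh6), on either side of zero. A match describes the letters and not binding.

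In homologous recombination, 8 of 9 genes were measured, with a median log2 difference of -0.08. Brca2, which loads the strand exchange recombinase onto DNA, had intensities of 704, 619 and 637 in WT mice and 592, 436 and 441 in BCS mice. All BCS values were below all WT values, by -0.43 on the log2 scale (SE 0.17, 95% interval -0.81 to -0.05), and limma's adjusted p was 0.209. Bard1, the partner of Brca1 in a ubiquitin ligase, was dim at 36.1, 17.9 and 25.1 in WT and 48.9, 45.4 and 25.0 in BCS mice. Its genotypes overlapped, its log2 difference of 0.57 (SE 0.31) was the highest of the 37, and its adjusted p in limma was 0.379. Xrcc3, a recombinase paralog, read 605, 698 and 723 in WT and 494, 566 and 569 in BCS mice. The BCS mice were the lower ones throughout, with a log2 difference of -0.31 (SE 0.15) and an adjusted p of 0.302 in limma. The rest overlapped between genotypes. Brca1, the scaffold of the pathway, read 4116, 3709 and 4024 in WT and 4875, 4018 and 4099 in BCS mice, a log2 difference of 0.13 (95% interval -0.10 to 0.35). Palb2, which joins Brca1 to Brca2, was at -0.24 and Rad51c, another recombinase paralog, at -0.11. Rad52, which anneals single strands, was at 0.25 and the DNA translocase Rad54l at -0.05. Adjusted p in limma of these 5 genes ranged from 0.512 to 0.907.

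Among break sensing and checkpoint genes, all 8 were measured and the median log2 difference was 0.02. Nbn, a subunit of the complex that recognises broken ends, read 1272, 1157 and 1294 in WT and 1603, 1577 and 1726 in BCS mice. Every BCS mouse was above every WT mouse, the log2 difference was 0.40 (SE 0.11, 95% interval 0.14 to 0.65), and limma's adjusted p of 0.0835 did not pass. Rad50, the other measured subunit of that complex, stood at 0.01 (95% interval -0.28 to 0.30). The kinases Atm, which responds to broken ends, and Atr, which responds to stalled forks, were at -0.15 and 0.03. Chek1, the kinase that acts after Atr, read 6051, 5481 and 6150 in WT and 6667, 6825 and 6042 in BCS mice, overlapping, at a log2 difference of 0.14 (SE 0.08). Chek2, the kinase that acts after Atm, read 1224, 1062 and 1159 in WT and 1284, 1318 and 1307 in BCS mice. These did not overlap, yet the log2 difference was 0.18 (SE 0.12) with an adjusted p of 0.464 in limma. Trp53bp1 and Mdc1, which hold repair factors on chromatin beside a break, were at 0.01 and -0.19. Adjusted p in limma for the genes other than Nbn ranged from 0.405 to 0.975.

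Both RecQ helicases, which unwind recombination intermediates, had lower means in BCS mice. Wrn read 1545, 1589.9 and 1634 in WT and 1402, 1296 and 1209.95 in BCS mice. The genotypes were apart, the log2 difference was -0.29 (SE 0.11, 95% interval -0.54 to -0.04), and limma's adjusted p was 0.206. Blm overlapped, with a log2 difference of -0.14 (95% interval -0.37 to 0.10).

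Base excision and single-strand break repair held genes on both sides of zero, with 8 of 8 measured and a median log2 difference of 0.06. Apex1, the endonuclease that cuts DNA where a base was removed, read 6967, 7333 and 8442 in WT and 8797, 10419.6 and 11521 in BCS mice. The lowest BCS mouse was above the highest WT mouse, and the log2 difference was 0.43 (SE 0.11, 95% interval 0.18 to 0.68). Its adjusted p of 0.0581 in limma was the lowest of the 37 genes and did not pass. Apex1 had 2 further probe sets. On the second brightest, of the _x_at kind like the brightest, it read 5492, 5652 and 6283 in WT and 6981, 9206 and 9499 in BCS mice, a log2 difference of 0.55 (SE 0.12) that passed with an adjusted p of 0.0309 in limma. On the third the log2 difference was 0.52 (SE 0.13) with an adjusted p of 0.0582 in limma. All 3 probe sets thus had the BCS mice above the WT mice, but they read the same RNA of the same mice, and probe sets ending in _x_at can also bind other transcripts. Across the 87 probe sets of the 37 genes, that of Apex1 was the only 1 called.

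**Figure D2:**
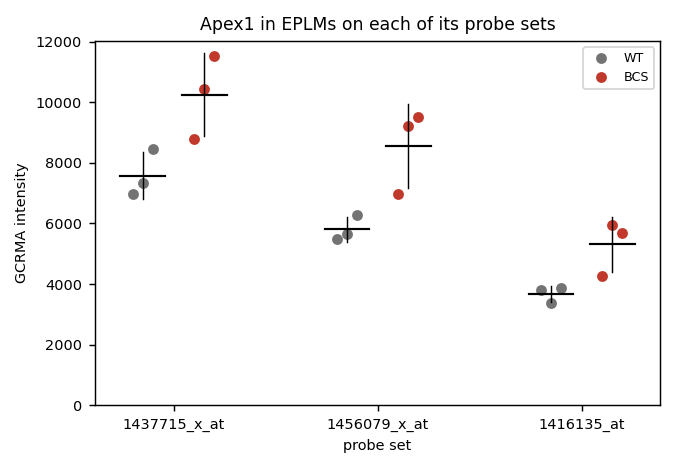
GCRMA intensity (y axis, linear) of Apex1 in EPLMs on its 3 probe sets (x axis, brightest first). Points are single mice, 3 per genotype, horizontal lines are means and vertical lines are SD. BCS mice lie above WT mice on each probe set, and the second probe set alone passed, with a log2 difference of 0.55.

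Lig3, the ligase that seals single-strand breaks, read 694, 667 and 634 in WT and 803, 961 and 901 in BCS mice. The genotypes were apart, with a log2 difference of 0.41 (SE 0.13, 95% interval 0.11 to 0.72) and an adjusted p of 0.131 in limma. Its scaffold Xrcc1 overlapped, at 0.23 (95% interval -0.10 to 0.55). The glycosylases among the 37 genes, Ung, Neil1 and Ogg1, lay the other way or near zero. Those of the wider list described below ranged from -0.03 (Smug1) to 0.43 (Nthl1), and none passed in limma. Ung, which removes uracil, also from immunoglobulin genes in mature B cells, read 5334, 4613 and 5124 in WT and 4252, 4518 and 4229.8 in BCS mice. All BCS mice were below the WT mice, by -0.21 on the log2 scale (SE 0.08), with an adjusted p of 0.22 in limma. Neil1, which removes oxidised bases, read 807, 887 and 725 in WT and 722, 532 and 569 in BCS mice. Its genotypes were apart by only a few units, the log2 difference was -0.42 (SE 0.16) and limma's adjusted p was 0.212. Ogg1, which removes oxidised guanine, was near the array median of 20 and at 0.13 on the log2 scale. Parp1, which marks strand breaks with ADP-ribose chains, was at -0.05 with a 95% interval of -0.19 to 0.08, the narrowest of the 37 genes. Parp2, whose promoter holds the octamer shown above, read 2259.9, 2079 and 2149 in WT and 2104, 2139 and 2192 in BCS mice. The values overlapped throughout, and the log2 difference was -0.01 (95% interval -0.23 to 0.20).

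In mismatch repair, Msh3, which recognises loops of unpaired bases, read 796, 838 and 822 in WT and 945, 862 and 939 in BCS mice. The genotypes were apart, but the log2 difference was 0.16 (SE 0.12) and limma's adjusted p 0.565. Msh6, which recognises single mismatches, and Pms2, the nuclease subunit that acts after them, overlapped at -0.08 and -0.12. In nucleotide excision repair, Ercc1, a subunit of the nuclease that cuts on the 5′ side of a lesion, read 744, 774 and 712 in WT and 848, 952 and 1028 in BCS mice. The BCS mice were the higher ones throughout, with a log2 difference of 0.34 (SE 0.13, 95% interval 0.04 to 0.64) and an adjusted p of 0.213 in limma. The helicase Ercc2 was at 0.02, and the damage sensors Xpa and Xpc at -0.06 and 0.07, each with overlapping genotypes.

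Of the Fanconi anaemia genes, Fanca, part of the core ubiquitin ligase, read 693, 779 and 596 in WT and 479, 527 and 586 in BCS mice. The groups were narrowly apart, with a log2 difference of -0.37 (SE 0.16, 95% interval -0.73 to -0.01) and an adjusted p of 0.254 in limma. Fancd2, a target of that ligase, read 783, 633 and 688 in WT and 790, 584 and 419 in BCS mice. The BCS mice spanned the WT mice, and the log2 difference of -0.27 had a 95% interval of -0.78 to 0.24. Its partner Fanci was at 0.10. Polm, a gap filling polymerase whose known work is in end joining, was below the array median at 12.1, 16.9 and 11.6 in WT and 11.7, 13.3 and 10.3 in BCS mice. These values overlapped, and the log2 difference was -0.17 (SE 0.15).

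**Figure D3:**
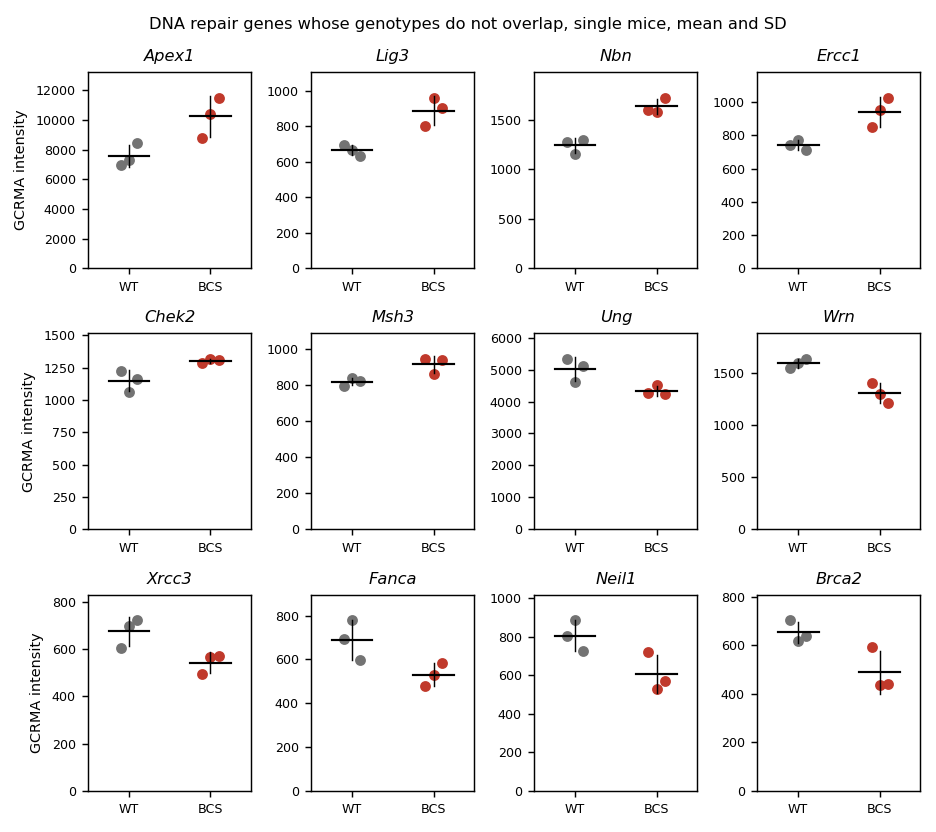
GCRMA intensity (y axes, linear, from 0) in single WT and BCS mice for the 12 repair genes whose genotypes did not overlap, 6 higher and 6 lower in BCS. Horizontal lines are means and vertical lines are SD over 3 mice. None passed the adjusted threshold in limma. An exact two-sided permutation test of 3 against 3 mice gives each p = 0.1, the smallest it can give. That value follows from choosing genes that do not overlap and adds no evidence.

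Whether a gene passed depended on a few choices for Apex1 and Nbn only. Without probe sets that were dim, 2 of the 33 repair genes left were higher, Nbn with an adjusted p of 0.0327 and Apex1 with 0.0364 in limma, against 8.45% of all genes higher and 11.1% lower with that filter. On the mean of each gene's probe sets the same 2 of 37 were higher, against 3.62% of all genes higher and 4.53% lower. None was lower in any alternative run.

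A wider list of 90 genes of the same pathways, of which 83 were measured, gave 3 genes that rose in BCS EPLMs and 0 that fell. The shares called over all genes are the 3.15% and 4.7% given above. Of the 83, 71 were over the intensity limit used above for the brighter genes. Among all genes over that limit, 5.47% were called higher and 8.31% lower. At an unadjusted p under 0.05, 12 of the 83 were higher (14.5%) and 5 lower (6.02%). The shares were 11.3% and 11.7% of all genes, and 18.1% and 17.7% of all genes over the limit. At that p the share of higher genes did not exceed that of the brighter genes, though the 83 also include dim genes. In 22 of the 83 every BCS mouse was above every WT mouse (26.5%), and in 8 the order was the reverse (9.64%). The shares were 14.5% and 14.2% of all genes, and 21.4% and 20.2% of all genes over the limit. By that measure the higher share was above that of the brighter genes and the lower share below it. For the 83, the methods' t-test, with the same adjustment and threshold, gave 0 higher and 0 lower. Rad23b, which stabilises the lesion sensor Xpc, read 2135, 1966 and 2209 in WT and 2852, 3440.03 and 2989 in BCS mice. The genotypes were apart, by 0.55 on the log2 scale (SE 0.11), with an adjusted p of 0.0189 in limma. Rad1, a subunit of the checkpoint clamp that Rad17 loads, read 619, 584 and 570.2 in WT and 859, 1069 and 981 in BCS mice. All BCS mice were higher, by 0.71 (SE 0.14), with an adjusted p of 0.0196 in limma. Ercc8, which acts where lesions stall transcription, read 77.7, 58.8 and 78.0 in WT and 137, 146 and 125 in BCS mice. It differed by 0.93 (SE 0.19), with an adjusted p of 0.0222 in limma. The median log2 difference of the 83 was 0.11, with means higher in BCS mice for 56 genes. These calls rested on few mice. Rad1 passed no longer when WT 2, WT 3, BCS 2 or BCS 3 was left out. Ercc8 remained past the threshold only when WT 1 was the mouse left out, and Rad23b only when it was BCS 1. On the mean or the most variable of its probe sets Rad23b did not pass, with adjusted p of 0.197 and 0.411 in limma.

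The sorting markers were checked on the same arrays. Ptprc, which encodes B220, was bright on all 6, as was Cd93, and Kit read 460.4 to 511. Ptprc was lower in BCS mice by -0.40 on the log2 scale (adjusted p of 0.0101 in limma). No probe set for Klrb1c alone, the gene of NK1.1, was at hand. Pou2af1 read 6278, 7250.1 and 3400.5 in WT and 10784, 10858 and 10323 in BCS mice. It was higher in every BCS mouse, by 0.99 (SE 0.23), with an adjusted p of 0.0436 in limma. The probe set was designed for the mouse gene and the transgene is human, so this value is no check of the transgene. By qPCR the paper could not detect endogenous OBF1 RNA in WT EPLMs and saw a robust rise in BCS EPLMs. The WT values here were far above the array median of 20, and the reason for that difference from the qPCR was not tested.

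Markers of several lineages moved on the same arrays on which the repair genes did not pass, and few proliferation genes did. Of 29 measured proliferation genes, 2 rose and 0 fell. At an unadjusted p under 0.05 there were 10 higher (34.5%) and 1 lower (3.45%), against 11.3% and 11.7% of all genes. All 29 were over the intensity limit used above for the brighter genes. Among all genes over that limit the shares were 18.1% and 17.7%, and 5.47% were called higher and 8.31% lower. The 1 lower proliferation gene was E2f1, a factor of the E2F family named after its values were seen. It was at -0.73 with an adjusted p of 0.0642 in limma. The 2 that rose were Cdk1, the mitotic kinase, by 0.58 (SE 0.10, adjusted p of 0.0119 in limma), and Ccne2, a cyclin of S phase entry, by 0.49 (SE 0.08, adjusted p of 0.00931 in limma). Their summed intensity was 263141 to 298043 in WT and 284789.6 to 314437 in BCS mice. Of 9 B lineage markers 7 rose, led by Vpreb3 at 2.27 and Igll1, a part of the surrogate light chain, at 1.47, with sums of 47063 to 73662 in WT and 102282 to 111012 in BCS mice. Of 9 plasmacytoid dendritic cell markers 7 fell, among them Ccr9 at -3.29 and Klk1, which read 14.2 to 17.98 in BCS mice, below the array median of 20, and was at least 193-fold lower taken against that median, with sums of 94816 to 105882 and 47985 to 64133. Of 7 NK markers 2 fell, Klrd1 at -2.34 and Klrk1, also below the array median in BCS mice and at least 2.04-fold lower taken against it, with sums of 8199 to 14579.96 and 1441.5 to 4151. Of 10 myeloid markers 1 fell, Csf1r at -2.40, with sums of 22629 to 71499 and 7961 to 48136. Of 8 T lineage markers Thy1 rose by 1.45 and Cd8a fell by 2.71, with sums of 617 to 1348 and 1608 to 2054. Thy1 alone made up 1438 to 1917 of the BCS sums, and 6 of the 8 markers had lower means in BCS mice. Of 9 erythroid and megakaryocytic markers none passed in limma (0, with 3 lower at an unadjusted p under 0.05, and 0 in the methods' t-test), with sums of 387 to 4009 and 315 to 369. WT 2 stood apart from the other WT mice in several lists. It was the highest WT mouse for 7 of 7 NK, 10 of 10 myeloid, 6 of 9 erythroid and megakaryocytic, 5 of 8 T lineage and 7 of 9 B lineage markers, with Pf4, a platelet chemokine, at 121, 2805 and 80.2 in WT mice. WT 1 was the highest for 26 of 29 proliferation genes. Among BCS mice, BCS 1 was the lowest for every NK marker, with Gzma at 154, 2148 and 1152. BCS 1 was also the lowest for every myeloid marker except Csf1r and Itgam, with S100a8 at 4295, 26694 and 19299. Without WT 2 the fit in limma gave 0 repair genes higher and 0 lower, as with it. Without BCS 1, Apex1 alone of the repair genes passed, higher in BCS mice. No marker was at 0 on these arrays. The part of these shifts in the values of the repair genes was not tested. In sorted bulk RNA, fewer cells of a type and less RNA per cell cannot be told apart.

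**Figure D4:**
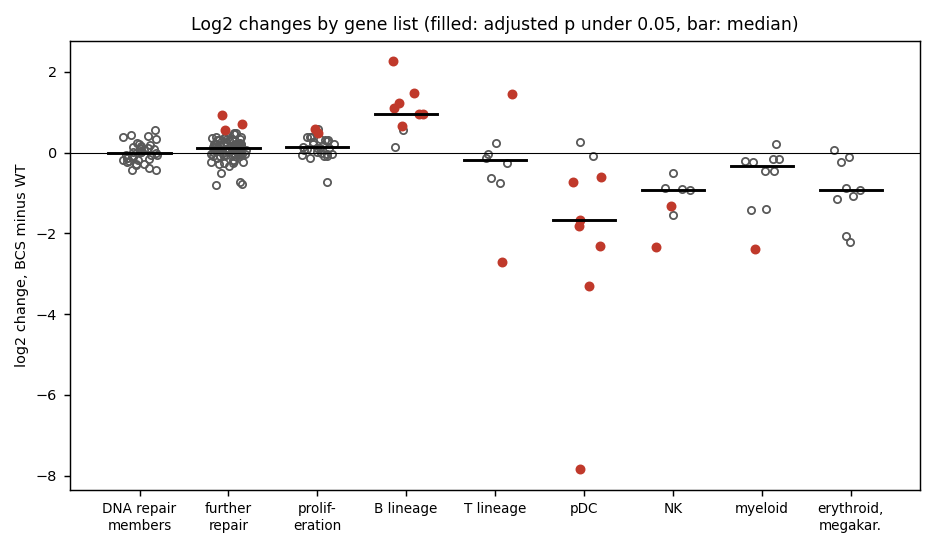
Log2 difference (log2 of intensity plus 1, BCS minus WT EPLMs, y axis) of each measured gene, by gene list (x axis; pDC, plasmacytoid dendritic cell). Filled red points passed an adjusted p under 0.05 in limma, open points did not, and bars are medians. The repair genes lie between -0.43 and 0.57 with no filled point, while B lineage markers have a median of 0.95 and dendritic cell markers one of -1.67. The lowest point is Klk1, whose BCS values were below the array median.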

How the data were processed

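Intensities were deposited as GCRMA values on a linear scale (45037 probe sets, 64 control features), made by the authors, whose methods also name Expressionist. The GCRMA version is not given in the sources used here. RNA was labeled with a kit of 2 cycles by the methods and of 1 cycle by the labels. The median is 20 on all 6 arrays, whose number limits the precision. The platform annotation gives 1 symbol for 34945 probe sets, several for 932 and none for 9160. For BCS minus WT EPLMs, limma 3.58.1 in R 4.3.3 (lmFit, then eBayes with an intensity trend, no covariates) was run on log2 of intensity plus 1, with Benjamini-Hochberg adjustment over all probe sets and calls at an adjusted p under 0.05. The procedure was tested on simulated data, and how often it recovered small differences there is not reported here. The repair genes, the wider list and the marker lists were chosen with earlier results of these data known. Full values were set for genes that passed and for the largest difference in each pathway, and promoters for genes that passed or hold an octamer. Other genes given mouse by mouse, and promoters with E2F-type motifs, were chosen after their values were seen. As alternatives, the methods' t-test was run with the same adjustment and threshold as limma, not with the paper's unadjusted P under 0.01. The intensity trend was left out or variances were made robust, and dim probe sets (not over 64 on at least 3 arrays) were removed. Arrays were quantile normalized or centred on their brighter probe sets, and the offset was raised to 16. Genes were also read from the mean of their probe sets or the most variable, thresholds were set at an adjusted p under 0.01 or medians 2-fold apart, and the replicate number was added as a block. Each array was left out in turn. Some further items are not reported here.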

Additional observations from a re-analysis of the deposited data

How the results depend on the processing

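Among the 37 repair genes, 0 were higher with limma and the t-test, 2 with the filter on dim probe sets (8.45% of all genes), 2 on the mean of probe sets (3.62% of all genes), 1 on the most variable probe set, 1 with robust variances and 0 to 1 when a mouse was left out (1, Apex1 with an adjusted p of 0.0215 in limma, without BCS 1). 0 were lower in each of these. Of the 83 further repair genes, 3 were higher, against 0 with the t-test, at an adjusted p under 0.01 or with medians 2-fold apart, and 0 to 2 when a mouse was left out. 0 were lower, against 3 with the filter (Ercc5, Recql, Timeless), 3 on the mean of probe sets (Ercc5, Timeless, Dmc1), 1 with robust variances (Ercc5) and 0 to 1 when a mouse was left out. Over all probe sets, 1007 were higher and 1465 lower, against 114 and 153 with the t-test, 363 and 694 at an adjusted p under 0.01, 421 and 757 with medians 2-fold apart, and 517 to 926 and 875 to 1315 when a mouse was left out (517 and 913 without WT 3, 526 and 875 without BCS 2, 600 and 991 without BCS 3). The cause was not tested, beyond the smaller number of mice or genes where these were left out. With the replicate number as a block, 1 repair gene was higher (Apex1, adjusted p of 0.0185 in limma), 0 further genes were higher, and 741 and 1179 probe sets were called. Deviations of same-numbered mice correlated with r of 0.00593, 0.0894 and 0.1 over 16435 probe sets, so the numbers were not taken to pair the mice. Of 588 values of single repair genes under an alternative, 558 kept direction and side of the threshold, 8 passed newly and 22, of 12 genes and none past the threshold in limma's adjusted p, changed sign. On the most variable probe set these were Rad54l at 0.071, Atr at -0.30, Parp1 at 0.24, Msh3 at -0.17, Xpa at 0.022 and Fanci at -0.18, and on the mean of probe sets Atr at -0.18, Parp1 at 0.13 and Fanci at -0.040. With a mouse left out, Rad54l ranged from -0.15 to 0.076, Rad50 from -0.095 to 0.097, Atr from -0.0048 to 0.076, Trp53bp1 from -0.078 to 0.058, Parp2 from -0.039 to 0.021, Msh6 from -0.17 to 0.015, Ercc2 from -0.079 to 0.14 and Xpc from -0.044 to 0.13. Bard1, Ogg1, Ercc2 and Polm were dim, which limits what their values show.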

Other observations

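The values of the 37 repair genes differed in their spread between mice. The median SD of log2 intensity over 3 mice was 0.10 in WT and 0.15 in BCS EPLMs, and 24 of 37 genes had the larger SD in BCS mice, a difference that was not tested. WT 1 was the highest WT mouse for 19 of the 37 genes and WT 2 the lowest for 19, while BCS 1 was the highest BCS mouse for 16 and BCS 3 the lowest for 16.

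Several genes had more than 1 probe set. Of 14 genes with at least 2 probe sets over an intensity of 64, 12 had the same sign on all of them, and Atr and Parp1 did not. For Chek1, the third brightest probe set read 422, 297 and 468 in WT and 623, 609 and 609.6 in BCS mice, a log2 difference of 0.66 (SE 0.19, adjusted p of 0.0889 in limma), against 0.14 on the brightest. On its second brightest the genotypes were also apart, at 0.32 (SE 0.14, adjusted p of 0.258 in limma). For Trp53bp1, the second brightest probe set had every BCS mouse above every WT mouse. Its log2 difference was 0.38 (SE 0.13, adjusted p of 0.152 in limma), against 0.01 on the brightest. For Atr, the log2 difference was 0.03 on the brightest probe set and -0.30 on the most variable one.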
